A study of Mus musculus with 10 samples.

Results

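The fragments described here came from the nuclear tRNAs that carry alanine (tRNA-Ala, with the anticodons AGC, CGC and TGC) and cysteine (tRNA-Cys, with the anticodon GCA), 4 of the 51 nuclear tRNAs that the annotated reads of mouse sperm distinguish by anticodon. They were chosen by name, because their 5′ fragments are known to begin with a run of G. The rule uses no measured value, but it was set with earlier results of these data known. For each of them the reads from the 5′ end, the 3′ end and the CCA end, the 3′ terminus to which CCA has been added, were counted, and the remaining reads were counted as internal. This gave 16 of the 1473 features of the libraries, and all 16 passed the filter on low counts.

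Small RNA was sequenced from mature sperm of the epididymal tail and vas deferens of C57BL/6J fathers, with 5 samples from mice on a high-fat diet (HFD-F0, 42% of kcal as fat) and 5 from mice on a control diet (CD-F0, 10% of kcal as fat), both begun at 4 weeks of age. Each library held 29558751 to 32178088 clean reads. Levels are given as RPM, reads per 1000000 clean reads of the sample, so a lower level in a bulk sample cannot tell fewer cells of a type from less RNA per cell. The labels do not state that each sample came from a separate mouse, so p-values measure the spread between these samples.

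Transfer RNAs deliver amino acids to the ribosome, and nucleases that cut them in or near the anticodon loop release 5′ and 3′ fragments known as tsRNAs. Long 5′ fragments of tRNA-Ala and tRNA-Cys are known in cultured cells for repressing translation: their terminal run of G can fold into a four-stranded structure that displaces the cap-binding initiation complex from mRNA. tsRNAs, above all 5′ fragments, are a major class of small RNA in mature mouse sperm.

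RefSeq lists 13 genes for tRNA-Ala-AGC on GRCm38.p6, of which 9 lie on chromosome 13 between 21222586 and 23431484. It lists 9 genes for tRNA-Ala-CGC and 11 for tRNA-Ala-TGC, of which 5 and 7 lie on chromosome X between 136357602 and 136590436. tRNA-Cys-GCA has 56 genes, and 48 of them lie on chromosome 6 between 47978997 and 48363603. The genes are 70 to 73 bases long. Several genes share most of their sequence, and a read that fits more than 1 anticodon equally was divided between them, so the levels of the 3 tRNA-Ala are not independent of each other.

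The first 30 bases of 1 tRNA-Ala-AGC gene, n-TAagc16 at chr13:21222586-21222657 (GRCm38.p6, plus strand, taken as the strand with AGC in the anticodon position), are shown because they carry the run of G at the 5′ terminus. The 17 bases around its anticodon show where tRNAs are known to be cut to give 5′ and 3′ fragments, and the last 30 bases show the 3′ end before CCA is added. This gene's own sequence ends in cca, and those bases are not the added CCA. Capitals mark the run of 5 G in the first and the anticodon AGC, at bases 33 to 35, in the second. The run of G was read in this 1 nuclear gene, and the first bases of the other genes of the 4 tRNAs and of other nuclear tRNAs were not analysed here.
n-TAagc16, bases 1 to 30: GGGGGtgtagctcagtggtagagcgcgtgc
n-TAagc16, bases 27 to 43: gtgcttAGCatgcacga
n-TAagc16, last 30 bases: aggccccgggttcaatccccggcacctcca

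The mitochondrial tRNAs for the same amino acids are encoded by unrelated genes, and the first 30 bases of both are shown to compare their 5′ terminus with that of the nuclear tRNA. They lie on the minus strand of the mitochondrial genome (GRCm38, GENCODE M21), mt-Ta from 5018 to 5086 and mt-Tc from 5192 to 5257. Capitals mark the leading G, 1 base in mt-Ta and 2 bases in mt-Tc.
mt-Ta, bases 1 to 30: Gaggtcttagcttaattaaagcaattgatt
mt-Tc, bases 1 to 30: GGtcttaaggtgatattcatgtcgaattgc

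Together the 4 tRNAs gave 9.93% to 19.3% of all nuclear tRNA reads, with means of 14.5% ± 2.61 for CD-F0 and 14.5% ± 3.39 for HFD-F0 (SD, n = 5 each). Almost all of these reads came from 5′ ends. The libraries were made from RNA of 18–30 nt, so the shares hold for fragments of that size. Fragment lengths were not analysed here, and these reads are not shown to be the long 5′ fragments known for repressing translation. The 5′ end held 91.4% to 95.6% of their reads in the 10 samples, against 68.6% to 74.9% of the reads of all other nuclear tRNAs pooled. The median 5′ end share of the 44 other nuclear tRNAs with at least 1000 reads in each sample was lower still, 36.5% in the lowest sample and 50.3% in the highest. Of the reads from nuclear 5′ ends, the 4 tRNAs held 12.4% to 24.4%.

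Among the 48 nuclear tRNAs with at least 1000 reads in each sample, tRNA-Ala-AGC had the highest mean 5′ end share, 94.9%, followed by tRNA-Cys-GCA with 94.7%. tRNA-Ala-TGC was at place 7 with 93.1% and tRNA-Ala-CGC at place 9 with 91.9%. The places changed from sample to sample, from 1 to 6 for tRNA-Ala-AGC, from 1 to 10 for tRNA-Cys-GCA, from 3 to 9 for tRNA-Ala-TGC and from 5 to 12 for tRNA-Ala-CGC. The order within this leading group therefore did not hold in each sample, and a high 5′ end share was not limited to alanine and cysteine: tRNA-Lys-TTT, tRNA-Met-CAT, tRNA-Ser-GCT, tRNA-Lys-CTT and tRNA-Ser-AGA had means of 92.3% to 94.2%. The plot of 5′ end shares shows these 9 tRNAs at the left.

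**Figure D1:**
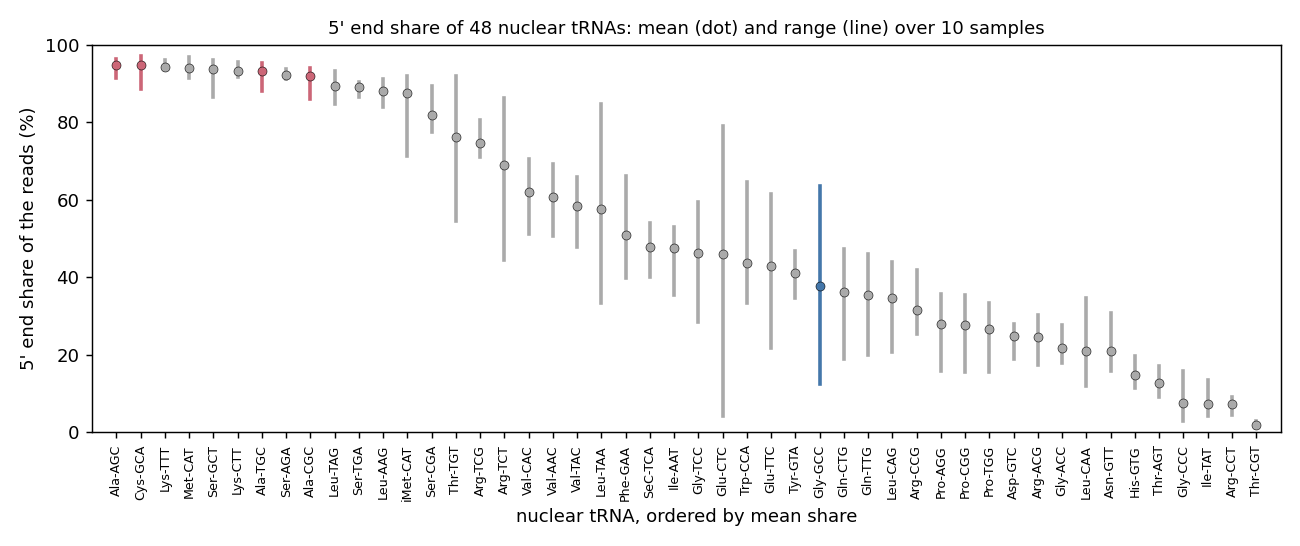
Share of each nuclear tRNA's reads that came from its 5′ end (vertical axis, percent) for the 48 nuclear tRNAs with at least 1000 reads in each sample, ordered by mean. Dots are means and lines the range over the 10 samples, with tRNA-Ala and tRNA-Cys in red and tRNA-Gly-GCC in blue; the 4 red dots lie between 91.9% and 94.9%.

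By level the order was different. tRNA-Ala-TGC had the most abundant 5′ end of the 4, at place 5 of 51 with a mean of 11524 RPM over all samples, after tRNA-Lys-TTT, tRNA-Lys-CTT, initiator tRNA-Met and tRNA-Met-CAT. tRNA-Cys-GCA followed at place 6 with 10389 RPM, tRNA-Ala-CGC was at place 8 with 6789 RPM and tRNA-Ala-AGC at place 12 with 4936 RPM. tRNA-Ala-TGC and tRNA-Cys-GCA, which differ little in mean level, exchanged places between samples: tRNA-Cys-GCA was the higher of the pair in CD-F0 replicate 1 and HFD-F0 replicate 1, and tRNA-Ala-TGC in the other 8 samples. The 3 tRNA-Ala kept their order in all 10 samples.

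In CD-F0 replicates 1 to 5 the 5′ end of tRNA-Ala-AGC was at 3587, 5149, 6238, 5484 and 4668 RPM. In HFD-F0 replicates 1 to 5 it was at 2562, 4877, 6621, 5013 and 5156 RPM. The groups overlapped, replicate 3 was the highest of each group and replicate 1 the lowest. The log2 fold change, HFD-F0 against CD-F0, was -0.12 (SE 0.25), with an adjusted p of 0.919 in the quasi-likelihood test of edgeR, adjusted by Benjamini-Hochberg over the 814 features tested.

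The 5′ end of tRNA-Ala-CGC was at 4569, 7054, 8567, 7788 and 6520.0 RPM in CD-F0 replicates 1 to 5. In HFD-F0 replicates 1 to 5 its level was 2985, 6675, 9122, 6872 and 7738 RPM. The same samples were lowest and highest as for tRNA-Ala-AGC, and the groups again overlapped. HFD-F0 differed from CD-F0 by a log2 fold change of -0.10 (SE 0.28; adjusted p = 0.941 in the same edgeR test).

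tRNA-Ala-TGC, the tRNA-Ala with the highest level, had 5′ end levels of 7743, 12107, 14657, 13447 and 11079 RPM in CD-F0 replicates 1 to 5. In HFD-F0 replicates 1 to 5 they were 4948, 11304, 15634, 11203 and 13122 RPM. Replicate 1 was the lowest of each group, and HFD-F0 replicate 1 was below all CD-F0 samples. Here the log2 fold change was -0.13 (SE 0.29; adjusted p = 0.923 in the same edgeR test). Without HFD-F0 replicate 1 the log2 fold changes were 0.034, 0.067 and 0.045 for AGC, CGC and TGC, and without both replicates numbered 1 they were -0.034, -0.021 and -0.045.

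For tRNA-Cys-GCA the 5′ end was at 9255, 9859.9, 13433, 9958 and 8026 RPM in CD-F0 replicates 1 to 5. In HFD-F0 replicates 1 to 5 it was at 10175, 10349, 14775, 10848 and 7208 RPM. Replicate 3 was the highest of each group and replicate 5 the lowest, and the groups overlapped. The difference in group level was a log2 fold change of -0.01 (SE 0.19; adjusted p = 0.991 in the same edgeR test), with an approximate 95% interval from -0.39 to 0.36. The mean RPM was higher in the HFD-F0 group, 10671 against 10106, and the sign depends on the scaling: with clean reads in place of TMM as library size the log2 fold change was 0.078. The corresponding intervals of the tRNA-Ala 5′ ends ran from -0.69 at the lowest to 0.45 at the highest, so changes of the 5′ ends by a log2 value of 1 lay outside all 4 intervals.

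**Figure D2:**
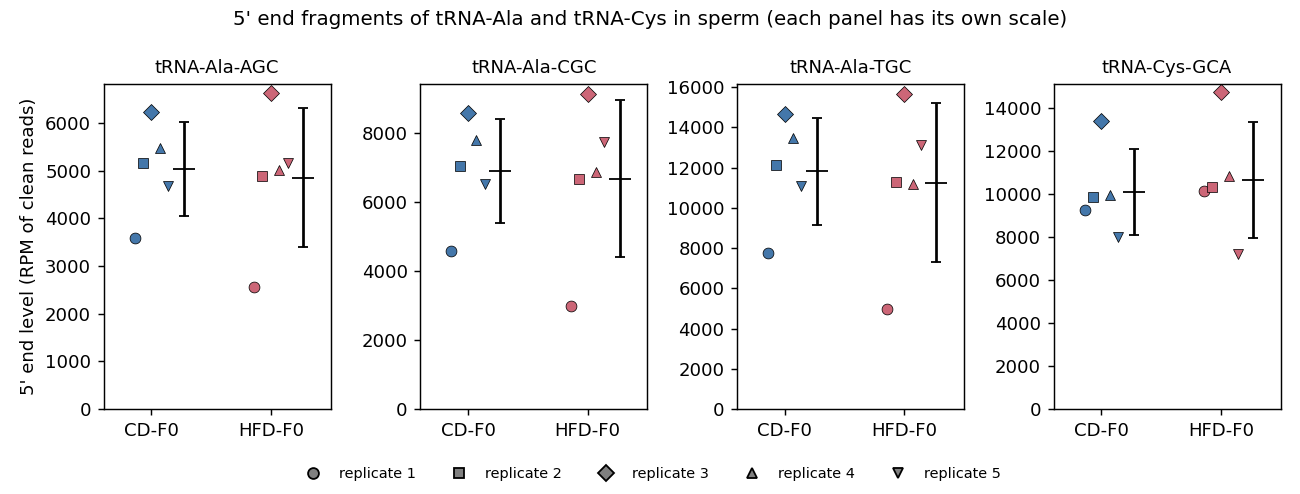
Level of the 5′ end (vertical axis, RPM of clean reads, own scale in each panel) of the 4 tRNAs in the 5 CD-F0 (blue) and 5 HFD-F0 (red) samples, 1 symbol for each replicate number, with mean ± SD in black. The groups overlap in each panel, and HFD-F0 replicate 1 (circle) is the lowest sample for the 3 tRNA-Ala, with 2562, 2985 and 4948 RPM.

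None of the 4 5′ ends passed the study's thresholds, an unadjusted p-value of at most 0.05 with a log2 fold change of at least 1 in size, and none of the other 45 nuclear 5′ ends tested did. Over all features tested, 3.69% passed them, and 10.2% passed the threshold on the p-value alone. The 4 5′ ends had a median log2 fold change of -0.11 beside -0.13 over the other 45, of which 14 were above 0 and 31 below. tRNA-Gly-GCC, the tRNA whose 5′ fragment the study followed, had a 5′ end at 1762 ± 794 RPM for CD-F0 and 3435 ± 2169 RPM for HFD-F0 (SD, n = 5 each). The log2 fold change was 0.93 (SE 0.49), with an unadjusted p of 0.0797 and an adjusted p of 0.514 in the same edgeR test. The study reported an increase of this fragment in HFD-F0 sperm, by sequencing for a single fragment length and by Northern blot. All 5′ end reads of the anticodon were pooled here, so the measures are unlike.

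As a share of each tRNA's own reads, which does not depend on the size of the library, the 5′ ends did not separate the groups either. For tRNA-Ala-AGC the share was 95.4% ± 1.04 for CD-F0 and 94.3% ± 1.86 for HFD-F0 (SD, n = 5 each) (p = 0.286, two-sided exact permutation test). For tRNA-Ala-CGC it was 92.6% ± 1.64 against 91.2% ± 3.12 (p = 0.460, same exact test), and for tRNA-Ala-TGC 93.7% ± 1.53 against 92.6% ± 2.72 (p = 0.508, same exact test). tRNA-Cys-GCA had 95.04% ± 1.4985 against 94.4% ± 3.33 (p = 0.817, same exact test). Each mean was lower in the HFD-F0 group, by less than the SD of that group, and for tRNA-Ala-AGC the difference of -1.08 percentage points was slightly larger than the CD-F0 SD. Without HFD-F0 replicate 1 the differences of tRNA-Ala-AGC, tRNA-Ala-CGC and tRNA-Ala-TGC were -0.358, -0.0779 and 0.0201 percentage points, and without HFD-F0 replicate 5 that of tRNA-Cys-GCA was 0.847 percentage points. Each adjusted p over the 192 shares of the 48 nuclear tRNAs was 0.991. Of those 192 shares, 6.77% passed an unadjusted threshold of 0.05 in this exact test.

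The level summed over all parts of a tRNA differed between the groups by less than the spread for tRNA-Ala-AGC (5261 ± 993 against 5118 ± 1476 RPM), tRNA-Ala-CGC (7431 ± 1536 against 7263 ± 2342 RPM), tRNA-Ala-TGC (12573 ± 2662 against 12059 ± 4034 RPM) and tRNA-Cys-GCA (10614 ± 1965 against 11243 ± 2563 RPM; CD-F0 against HFD-F0, SD, n = 5 each). The exact permutation test gave p = 0.881, 0.889, 0.833 and 0.659, each with an adjusted p of 0.992 over 48 nuclear tRNAs, of which 2.08% had p ≤ 0.05.

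The ratios between the 3 tRNA-Ala varied less from sample to sample than the ratio of tRNA-Cys to tRNA-Ala. Reads that fit more than 1 tRNA-Ala were divided between them, so the levels that enter the ratios between tRNA-Ala are not independent. The ratio of 5′ end reads of tRNA-Ala-CGC to tRNA-Ala-TGC stayed between 0.579 and 0.613 in the 10 samples, a coefficient of variation of 1.76%. That of tRNA-Ala-AGC to tRNA-Ala-TGC ranged from 0.393 to 0.518, a coefficient of variation of 7.96%. The ratio of tRNA-Cys-GCA to tRNA-Ala-TGC ranged from 0.549 to 2.06, a coefficient of variation of 42.2%, and from 0.549 to 0.968 without the replicates numbered 1.

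The summed 5′ ends of the 3 tRNA-Ala were lowest in HFD-F0 replicate 1 with 10495 RPM and in CD-F0 replicate 1 with 15898 RPM, and the other 8 samples lay between 22268 and 31377 RPM. tRNA-Cys-GCA was not low in either of these libraries, at 10175 and 9255 RPM. It was lowest in HFD-F0 replicate 5, with 7208 RPM beside 26017 RPM for the tRNA-Ala. Cysteine 5′ ends therefore amounted to 0.277 of the alanine 5′ ends in HFD-F0 replicate 5 and to 0.969 in HFD-F0 replicate 1. The group means of this ratio, 0.435 ± 0.0900 (SD, n = 5) for CD-F0 and 0.528 ± 0.260 (SD, n = 5) for HFD-F0, differed by less than the HFD-F0 SD and by slightly more than the CD-F0 SD, and no test was made. Without HFD-F0 replicate 1 the HFD-F0 mean was 0.418, below that of CD-F0.

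**Figure D3:**
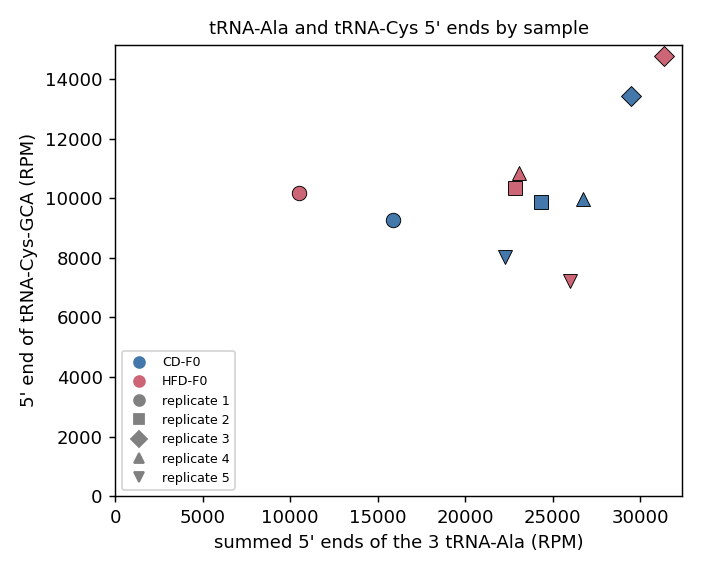
Level of the tRNA-Cys-GCA 5′ end (vertical axis, RPM) against the summed level of the 3 tRNA-Ala 5′ ends (horizontal axis, RPM), 1 point for each of the 10 samples, CD-F0 in blue and HFD-F0 in red. The circles at the left are the replicates numbered 1, with 10495 and 15898 RPM of tRNA-Ala and levels of tRNA-Cys within the range of the other samples.

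On the scale of log2(RPM + 1) over the 10 samples, the 5′ ends of the 3 tRNA-Ala correlated with each other at Pearson's r of 0.992 to 0.999 and with tRNA-Cys-GCA at 0.27 to 0.38 (Spearman's rho 0.418 to 0.430). The latter, with samples chosen to be left out after seeing the data, depended on the replicates numbered 1. Their r was 0.475 to 0.631 without HFD-F0 replicate 1 and 0.594 to 0.798 without both. These are the 2 samples farthest from the median of the tRNA-Ala. Without the 2 samples farthest from the median of tRNA-Cys-GCA instead, r was 0.291 to 0.363. Replicate 3 was the highest of each group for tRNA-Ala and tRNA-Cys alike. The tRNA-Ala share reads and all features of a sample share its library and depth, so these values are a description. Outside the 4 tRNAs, the features most like each tRNA-Ala 5′ end were the internal reads of tRNA-Arg-CCG (r = 0.946, 0.963 and 0.968 for AGC, CGC and TGC) and the miRNA mmu-mir-1946a (r = 0.946, 0.931 and 0.932). Without the 2 samples farthest from the median, r fell to 0.652, 0.730 and 0.794 for tRNA-Arg-CCG and was 0.932, 0.940 and 0.936 for mmu-mir-1946a. The third feature was the 3′ end of tRNA-His-GTG for AGC (r = 0.896) and that of tRNA-Arg-TCG for CGC and TGC (r = 0.911 and 0.914), and these fell to 0.566, 0.594 and 0.607 without the same 2 samples. The tRNA-Cys-GCA 5′ end had weaker matches, the miRNAs mmu-mir-3061, mmu-mir-542 and mmu-mir-582 with r = 0.844, 0.737 and 0.7099. Without the 2 samples farthest from its own median, r was 0.730, 0.260 and 0.728.

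Of the 16 features, 2 passed these thresholds with higher levels in the HFD-F0 group and none with lower levels. Both were 3′ ends, of tRNA-Ala-CGC and tRNA-Ala-TGC, and both rested on few reads. That of tRNA-Ala-CGC passed the filter on low counts only through the HFD-F0 group, the group where it was higher. In the upward direction 2.09% of all features passed, in the downward direction 1.6%, and 1.55% of the 193 nuclear tRNA features passed in either direction. Of the 44 nuclear 3′ ends tested, 4.55% passed, which were these 2. No feature of the 16 passed after adjustment, and over all 814 features 1 did.

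**Figure D4:**
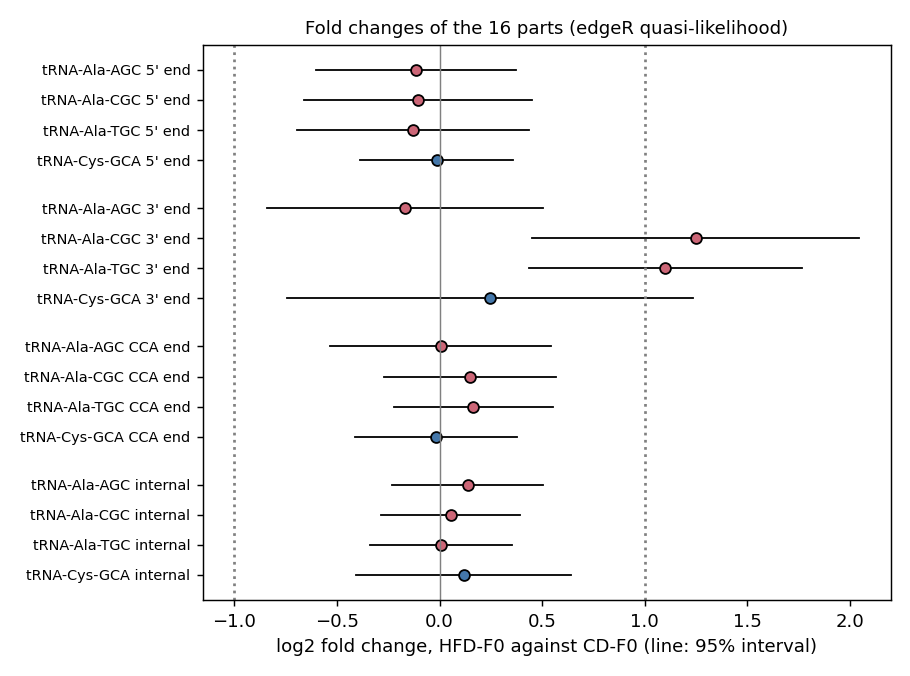
Log2 fold change, HFD-F0 against CD-F0 (horizontal axis), of the 16 features of tRNA-Ala (red) and tRNA-Cys (blue), with lines for the 95% interval and dotted lines at the thresholds of -1 and 1. The 3′ ends of tRNA-Ala-CGC and tRNA-Ala-TGC lie at 1.25 and 1.10, and the other 14 features lie between -0.17 and 0.25.

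The 3′ end of tRNA-Ala-CGC was at 0.212, 0.314, 0.270, 0.307 and 0.447 RPM in CD-F0 replicates 1 to 5. In HFD-F0 replicates 1 to 5 it was at 0.370, 0.786, 1.22, 0.760 and 0.750 RPM. Of the HFD-F0 samples 4 lay above the highest CD-F0 sample, and replicate 1 was the lowest of each group. HFD-F0 exceeded CD-F0 by a log2 fold change of 1.25 (SE 0.41), with an adjusted p of 0.250 in the same edgeR test. This 3′ end had 6 to 14 reads in the CD-F0 samples and 12 to 39 in the HFD-F0 samples. It therefore passed the filter on low counts only through the HFD-F0 group, where it was higher. The levels stood for 6 to 39 reads in a library: the 6 reads of CD-F0 replicate 1 have a 95% Poisson interval of 0.0724 to 0.429 RPM and the 39 reads of HFD-F0 replicate 3 one of 0.862 to 1.66 RPM, for counting error alone.

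For tRNA-Ala-TGC the 3′ end was at 0.376, 0.881, 0.518, 0.545 and 0.659 RPM in CD-F0 replicates 1 to 5. In HFD-F0 replicates 1 to 5 it was at 0.813, 1.33, 1.53, 1.28 and 1.71 RPM. Again 4 of the HFD-F0 samples lay above the highest CD-F0 sample, and replicate 1 was the lowest of each group. With 11 to 51 reads in a library, the log2 fold change was 1.10 (SE 0.34), with an adjusted p of 0.225 in the same edgeR test. It fell below the threshold of 1 when CD-F0 replicate 1 or HFD-F0 replicate 5 was left out, with values of 0.99 and 0.97.

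As shares of each tRNA's own reads these 3′ ends did not overlap between the groups. For tRNA-Ala-CGC the share was 0.00426% ± 0.0013 for CD-F0 and 0.0106% ± 0.0014 for HFD-F0 (SD, n = 5 each), and for tRNA-Ala-TGC 0.00480% ± 0.0014 against 0.0115% ± 0.0019. The exact permutation test gave p = 0.00794 for both, the smallest value that 5 against 5 samples allow, and an adjusted p of 0.218 over 192 shares. Of the 192 shares, 3.65% did not overlap between the groups, and of the 48 shares of 3′ ends 8.33% did not.

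The 3′ ends of tRNA-Ala-AGC and tRNA-Cys-GCA did not pass the thresholds, and their difference from the other tRNA-Ala 3′ ends was not tested. tRNA-Ala-AGC had 3′ end levels of 0.627, 1.37, 1.66, 1.15 and 0.683 RPM in CD-F0 replicates 1 to 5 and of 0.911, 0.689, 0.975, 1.28 and 1.29 RPM in HFD-F0 replicates 1 to 5. All HFD-F0 values lay inside the range of the CD-F0 values, and the log2 fold change was -0.17 (SE 0.34; adjusted p = 0.914 in the same edgeR test). The 3′ ends of tRNA-Cys-GCA were more abundant, at 4.30 to 19.3 RPM in the CD-F0 group and 3.22 to 25.8 RPM in the HFD-F0 group, with a log2 fold change of 0.25 (SE 0.51; adjusted p = 0.914 in the same edgeR test) and a 95% interval from -0.74 to 1.24 that includes the value of tRNA-Ala-TGC. The other 40 nuclear 3′ ends tested had a median log2 fold change of 0.18, with 28 above 0, 12 below and none past the thresholds. Summed over the 3 anticodons, which leaves out how reads were divided between them, the tRNA-Ala 3′ ends were at 2.004 ± 0.543 RPM for CD-F0 and 3.14 ± 0.700 RPM for HFD-F0 (SD, n = 5 each). The groups overlapped in this sum, with 1.22 to 2.56 RPM in CD-F0 and 2.09 to 3.76 RPM in HFD-F0, and it was not tested.

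**Figure D5:**
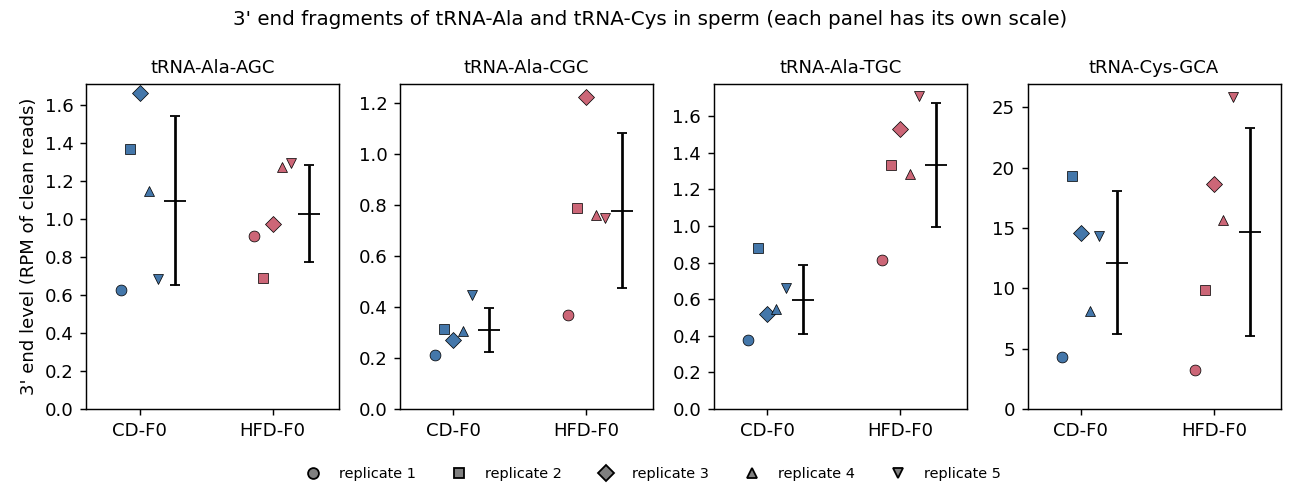
Level of the 3′ end (vertical axis, RPM of clean reads, own scale in each panel) of the 4 tRNAs in the 5 CD-F0 (blue) and 5 HFD-F0 (red) samples, 1 symbol for each replicate number, with mean ± SD in black. In the panels of tRNA-Ala-CGC and tRNA-Ala-TGC 4 of the 5 HFD-F0 samples lie above all CD-F0 samples, at levels of at most 1.71 RPM.

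The CCA ends, which carry the CCA that matures a tRNA for aminoacylation, held far fewer reads than the 5′ ends and more than the 3′ ends. Their mean levels were 25.04 ± 6.35 RPM against 26.4 ± 8.15 RPM (CD-F0 against HFD-F0, SD, n = 5) for tRNA-Ala-AGC, 16.1 ± 3.19 against 18.8 ± 3.64 RPM for tRNA-Ala-CGC, 24.5 ± 4.01 against 29.2 ± 5.21 RPM for tRNA-Ala-TGC and 70.3 ± 7.58 against 73.2 ± 14.3 RPM for tRNA-Cys-GCA. The log2 fold changes lay between -0.02 and 0.16, and none passed the thresholds. Because the added CCA is not encoded in the gene, a read that contains it can lack a match in the genome. The reads without a match made up 74.9% to 90.8% of the CCA end reads of tRNA-Ala-AGC, 35.9% to 55.7% of those of tRNA-Ala-CGC, 40.6% to 55.4% of those of tRNA-Ala-TGC and 5.08% to 16.7% of those of tRNA-Cys-GCA. No read of a 5′ or 3′ end of the 4 tRNAs lacked a match. The genome-matched and the unmatched CCA reads of each tRNA, taken alone, gave 8 unadjusted p values of 0.119 to 0.833 between the groups in the exact permutation test.

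Internal reads, those assigned to none of the 3 ends, were the second most frequent kind for all 4 tRNAs. They were at 209 ± 34.3 against 244 ± 47.99 RPM for tRNA-Ala-AGC, 515 ± 67.7 against 565 ± 105 RPM for tRNA-Ala-CGC, 742 ± 89.5 against 786 ± 156 RPM for tRNA-Ala-TGC and 425 ± 83.8 against 484 ± 193 RPM for tRNA-Cys-GCA (CD-F0 against HFD-F0, SD, n = 5 each). The log2 fold changes were 0.14, 0.06, 0.01 and 0.12, and none passed the thresholds. HFD-F0 replicate 5 had the highest level of internal reads of all 10 samples for each of the 4 tRNAs, with 323, 741, 1055 and 811 RPM for AGC, CGC, TGC and GCA. Its internal share was, for tRNA-Cys-GCA, 9.97%, against 2.34% to 5.87% in the other samples.

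The mitochondrial tRNAs of the same amino acids also gave mostly 5′ ends, from genes that begin with 1 or 2 G. Mitochondrial tRNA-Ala-TGC had a 5′ end level of 816 ± 247 RPM for CD-F0 and 1042 ± 271 RPM for HFD-F0 (SD, n = 5 each), beside internal reads at 8.84 ± 2.89 and 12.2 ± 4.05 RPM. Its 5′ end was highest in HFD-F0 replicate 1 with 1508 RPM, the library with the lowest nuclear tRNA-Ala 5′ ends, and the log2 fold change was 0.25 (SE 0.18; adjusted p = 0.675 in the same edgeR test). Mitochondrial tRNA-Cys-GCA was rarer, with a 5′ end at 62.0 ± 24.3 RPM against 70.4 ± 34.8 RPM and a log2 fold change of 0.15 (SE 0.46; adjusted p = 0.948 in the same edgeR test). In both replicates numbered 1 it was low, at 18.7 and 18.9 RPM, against 56.3 to 109 RPM in the other 8 samples. The CCA end of mitochondrial tRNA-Ala-TGC passed the thresholds upward on at most 30 reads in a library. It was at 0 to 0.230 RPM in the CD-F0 group and 0.375 to 1.01 RPM in the HFD-F0 group. With 0 to 7 reads in CD-F0 and 12 to 30 in HFD-F0, it passed the filter on low counts only through the group where it was higher.

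The samples were checked for their labelled cell type with miRNAs. All 5 miRNAs of the sperm and late spermatogenic list (mmu-mir-34b, mmu-mir-34c, mmu-mir-449a, mmu-mir-191 and mmu-mir-465a) were detected in each sample, with summed levels of 16680 ± 1104 RPM for CD-F0 and 16009 ± 3896 RPM for HFD-F0 (SD, n = 5 each), and mmu-mir-449a was the most abundant with a median of 6353 RPM. miRNAs that mark other cells were present as well. The 6 epithelial miRNAs, led by mmu-mir-429 with a median of 2320 RPM, summed to 5519 ± 1194 against 6890 ± 1574 RPM, and all 6 means were higher in the HFD-F0 group with none past the thresholds. The 6 smooth muscle and stromal miRNAs, led by mmu-mir-143 with a median of 27211 RPM, summed to 28353 ± 3680 against 31345 ± 8429 RPM, with 4 of the 6 higher in the HFD-F0 group and 1, mmu-mir-145a, past the thresholds (log2 fold change 1.09, SE 0.38; adjusted p = 0.293 in the same edgeR test). The 7 blood and immune miRNAs, led by mmu-mir-146a with a median of 2724 RPM, summed to 4518 ± 802 against 4800 ± 1140 RPM, with 6 of the 7 higher in the HFD-F0 group and none past the thresholds. Of the 24 miRNAs of the 4 lists, 1 did not overlap between the groups, the myeloid miRNA mmu-mir-223, with 342 to 377 RPM in CD-F0 and 449 to 584 RPM in HFD-F0 (log2 fold change 0.44, SE 0.13; adjusted p = 0.225 in the same edgeR test). The levels of 3.93% of all features tested did not overlap.

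None of the miRNAs of these lists was at 0 in any sample. HFD-F0 replicate 1, in which the tRNA-Ala 5′ ends were lowest, had the highest sums of the sperm, epithelial and smooth muscle lists, 22269, 9463 and 39170 RPM. HFD-F0 replicate 5, in which the tRNA-Cys 5′ end was lowest, had the lowest sums of the smooth muscle and blood lists, 17488 and 3249 RPM. CD-F0 replicate 1, the other library with low tRNA-Ala 5′ ends, had the lowest share of clean reads that matched the genome. It was 64.9%, against 68.6% to 75.2% in the other 9 libraries. By group this share was 70.5% ± 4.41 for CD-F0 and 74.0% ± 0.574 for HFD-F0 (SD, n = 5 each). The part of these differences in the tRNA levels was not tested.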

How the data were processed

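With SPORTS and Bowtie (1 mismatch allowed; mm10, per the submitters' notes) the authors assigned the clean reads of RNA of 18–30 nt excised from a gel to annotated classes, and deposited reads per sub-class for each sample without normalization. Reads that match more than 1 sub-class were divided, so the deposited values are estimated counts, of which 37.3% to 39.8% were not whole in a library. Whether reads with equal molecular identifiers were collapsed is not given in the sources used here, and fragment lengths of these tRNAs were not analysed here. Genome-matched and unmatched reads were added and rounded. All features that passed filterByExpr (814) were tested in 1 fit, HFD-F0 against CD-F0 without covariates, with edgeR 4.0.16 (TMM, quasi-likelihood, Benjamini-Hochberg) in R 4.3.3, and calls used the study's thresholds, an unadjusted p-value of at most 0.05 and an absolute log2 fold change of at least 1. Shares and RPM were compared by exact permutation tests (Python 3.11.15, scipy 1.17.1). On simulated counts of this comparison (791 features, log2 fold change 2), 97.9% of 189 changed features were recovered and 0.997% of the unchanged were called. Smaller changes were not simulated, so this recovery does not apply to the smaller changes of the tRNA-Ala 3′ ends.

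All 16 features of the 4 tRNAs are named, with the same parts of tRNA-Gly-GCC and of the mitochondrial tRNAs of alanine and cysteine, and the 3 features most like each 5′ end by Pearson correlation. The tRNAs and lists were chosen with earlier results of these data known. Alternatives were DESeq2 1.42.0 and its size factors, clean reads as library size, other filters on low counts, genome-matched reads only, tsRNA features only, end reads only, a replicate block and each replicate left out. The 45 pairs of libraries differed by a chi-square per degree of freedom of at least 508 against counting error alone, so no pair agreed within sampling noise. A second library of the same RNA would not be recognised by this check. tRNA sequences are from RefSeq (GRCm38.p6) and GENCODE M21.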

Additional observations from a re-analysis of the deposited data

Results flagged for a closer look

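Of 64 groups of 5 samples checked for a sample far from the others, 5 had one. Chance gives about 1 in 20 groups where the groups are independent. These are not, because the shares of a tRNA depend on each other and the tRNA-Ala share reads. In the HFD-F0 group replicate 1 was the highest sample for the share of CCA end reads of tRNA-Ala-CGC, 0.407% with the next sample at 0.257%, and of tRNA-Ala-TGC, 0.439% with the next at 0.236%. Replicate 5 of the same group had the highest level of internal reads of tRNA-Ala-TGC, 1055 RPM with the next sample at 756 RPM. It also had the lowest 5′ end share of tRNA-Cys-GCA, 88.7% with the next sample at 94.7%, and the highest internal share of that tRNA, 9.97% with the next at 4.43%.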

How the results depend on the processing

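The 3′ end of tRNA-Ala-CGC kept its call in all 18 alternatives that tested it. Its log2 fold change was 1.04 to 1.41, with an adjusted p of 0.0779 to 0.488 in edgeR and DESeq2. Where a filter on low counts was used, the HFD-F0 group alone brought it past that filter. Those alternatives therefore do not test its call apart from the filter. With at least 10 counts in every sample it was not tested, and calls among the 16 features were then 1 instead of 2. The 3′ end of tRNA-Ala-TGC had log2 fold changes of 0.97 to 1.23 (adjusted p 0.0779 to 0.466 in edgeR and DESeq2). It lost its call without CD-F0 replicate 1 or HFD-F0 replicate 5. With a replicate left out, 1 to 2 of the 16 were therefore called. No alternative brought another of the 16 past the thresholds. Over all features 17 were called up and 13 down: 39 and 54 without a filter on low counts, 11 and 8 with at least 10 counts in every sample, and 0 down among tsRNA features alone (14 up). With a replicate left out, calls were 12 to 23 up and 6 to 27 down.

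Values whose sign changed were all uncalled. With a replicate left out, the log2 fold changes of the 5′ ends ranged from -0.24 to 0.034 (AGC), -0.23 to 0.067 (CGC), -0.26 to 0.045 (TGC) and -0.16 to 0.088 (Cys-GCA); of the 3′ ends from -0.31 to 0.012 (AGC) and -0.076 to 0.48 (Cys-GCA); of the CCA ends from -0.15 to 0.14 (AGC) and -0.096 to 0.081 (Cys-GCA); and of internal reads from -0.0085 to 0.19 (AGC), -0.085 to 0.12 (CGC), -0.15 to 0.072 (TGC) and -0.18 to 0.22 (Cys-GCA). The differences in level ranged from -588 to 436 RPM (AGC), -780.3 to 779.7 RPM (CGC), -1604 to 1095 RPM (TGC) and -369 to 1444 RPM (Cys-GCA). In percentage points, the 5′ end shares differed by -1.77 to 0.0201 (TGC) and -1.23 to 0.847 (Cys-GCA), the internal shares by -0.0423 to 1.70 (TGC) and -0.727 to 1.18 (Cys-GCA), the 3′ end shares by -0.00147 to 0.00328 (AGC) and -0.0205 to 0.0514 (Cys-GCA), and the CCA end shares by -0.0335 to 0.0686 (AGC) and -0.0989 to 0.0414 (Cys-GCA).

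With both replicates numbered 1 left out, chosen after seeing the data, the differences in level were 75.5, 187 and 69.97 RPM (AGC, CGC, TGC), those in the 3′ end share of AGC and the CCA end share of Cys-GCA -0.00244 and 0.0384 percentage points, and the log2 fold changes of the Cys-GCA 5′ and CCA ends 0.023 and 0.10. With clean reads as library size the latter were 0.078 and 0.058, while the median of all features was 0.09. With end reads only, the Cys-GCA CCA end share differed by 0.0020 percentage points. The log2 fold change of the AGC CCA end was -0.0029 with at least 10 counts in every sample and -0.077 among tsRNA features alone. That of TGC internal reads was -0.0045 with DESeq2 size factors and with DESeq2, -0.0050 with at least 10 counts in every sample, -0.0035 with genome-matched reads only and -0.091 among tsRNA features alone, where CGC internal reads were at -0.038. The cause was not tested.

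The replicate numbers were shared by both groups, and the labels do not say whether they pair the samples. The correlations of the deviations were 0.336, -0.0873, 0.246, -0.191 and -0.137 for numbers 1 to 5, and 2 of 5 CD-F0 samples correlated best with their own number. A check of 5 pairs is too small to settle this. With a replicate block 2 of the 16 features were called, 17 features in all up and 8 down, and the log2 fold changes of the AGC CCA end and the TGC internal reads were -0.045 and -0.027. Depth limited the 3′ ends of tRNA-Ala, where 3 reads correspond to 0.0932 to 0.101 RPM.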
